A study of Homo sapiens with 6 samples.

Results

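The genes described here are 50 enzymes and accessory subunits that modify transfer RNA (tRNA), other than the NSUN family of cytosine methyltransferases. The cells are labelled U2OS, an established human osteosarcoma line. The 50 form a list of gene names, to which no measured value was applied as a criterion, although earlier results of these data were known. All 50 were found among 17721 genes listed in either of 2 deposited tables of gene levels, of which 14270 were in both. The labels describe 6 RNA samples: 2 co-immunoprecipitates obtained with a mutant of NSun2 from cells carrying a short hairpin against DNMT1 (shDNMT1), 2 such co-immunoprecipitates from shNC cells, whose genotype is given as WT, 1 shDNMT1 input and 1 shNC input. The treatment protocol names an NSun2 mutant plasmid, put into shDNMT1 cells and into cells it calls U6, while both inputs are labelled with no treatment. DNMT1 maintains cytosine methylation in DNA, and NSun2 methylates cytosine in RNA.

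The tables give FPKM, the authors' measure of fragments scaled to transcript length and to the number of mapped fragments. The headers tie neither table to a sample, a knockdown state or an immunoprecipitation, and so the tables are called second and first, with no meaning in the order. The effect of DNMT1 knockdown and the binding to NSun2 could therefore not be read from them. Each gene has 1 value per table, with no replicate, no error and no test, and each difference below holds between these 2 tables only. Levels per length can be set side by side within a table. Differences are given as log2((second + 1)/(first + 1)), where the pseudocount of 1 FPKM makes the differences of low genes look smaller. For orientation, DNMT1 had 9.36 FPKM in the second table, against 23.3 FPKM in the first, and NSUN2 had 1147 FPKM against 559 FPKM. RNA of the chromosomal gene and of any plasmid cannot be told apart in this value. Of 6 osteoblast markers, ALPL, an alkaline phosphatase, was listed at 38.0 and 78.4 FPKM and COL1A1 at 0.451 and 3.04 FPKM. RUNX2 and BGLAP were listed under 1 FPKM in the second table and were not listed in the first, and SP7 and SPP1 were listed in neither. The markers other than ALPL were thus low or not listed and gave little support for the label. The identity of the cells was not tested.

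Transfer RNAs are the most heavily modified RNAs of the cell. Modifications in the core of the molecule hold its fold together, and modifications in the anticodon loop tune which codons are read and how firmly the reading frame is held. Each is placed by a dedicated enzyme, often as a complex of a catalytic subunit and a partner, and several enzymes have a paralog that serves the tRNAs of mitochondria. The main chemistries are methylation, the isomerisation of uridine to pseudouridine, the deamination of adenosine to inosine, the side chains of the wobble uridine and the reduction of uridine to dihydrouridine.

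The 50 genes were listed over a wide range of levels, and most kept their level between the tables. Their levels had a median of 5.29 FPKM in the second table and 4.80 FPKM in the first, close to the 5.15 and 4.62 FPKM of all genes in both tables. At 10 FPKM or more there were 19 genes by the second table and 20 by the first, and 5 genes were under 1 FPKM in each. The order of the genes by level was alike in both tables, with a Spearman correlation of 0.964 across the 50 genes, which share the 2 tables and are not independent replicates. TRMT112 and FTSJ1 stood at the top, at ranks 547 and 548 of 16824 listed genes in the second table and at ranks 584 and 598 of 15167 in the first.

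**Figure D1:**
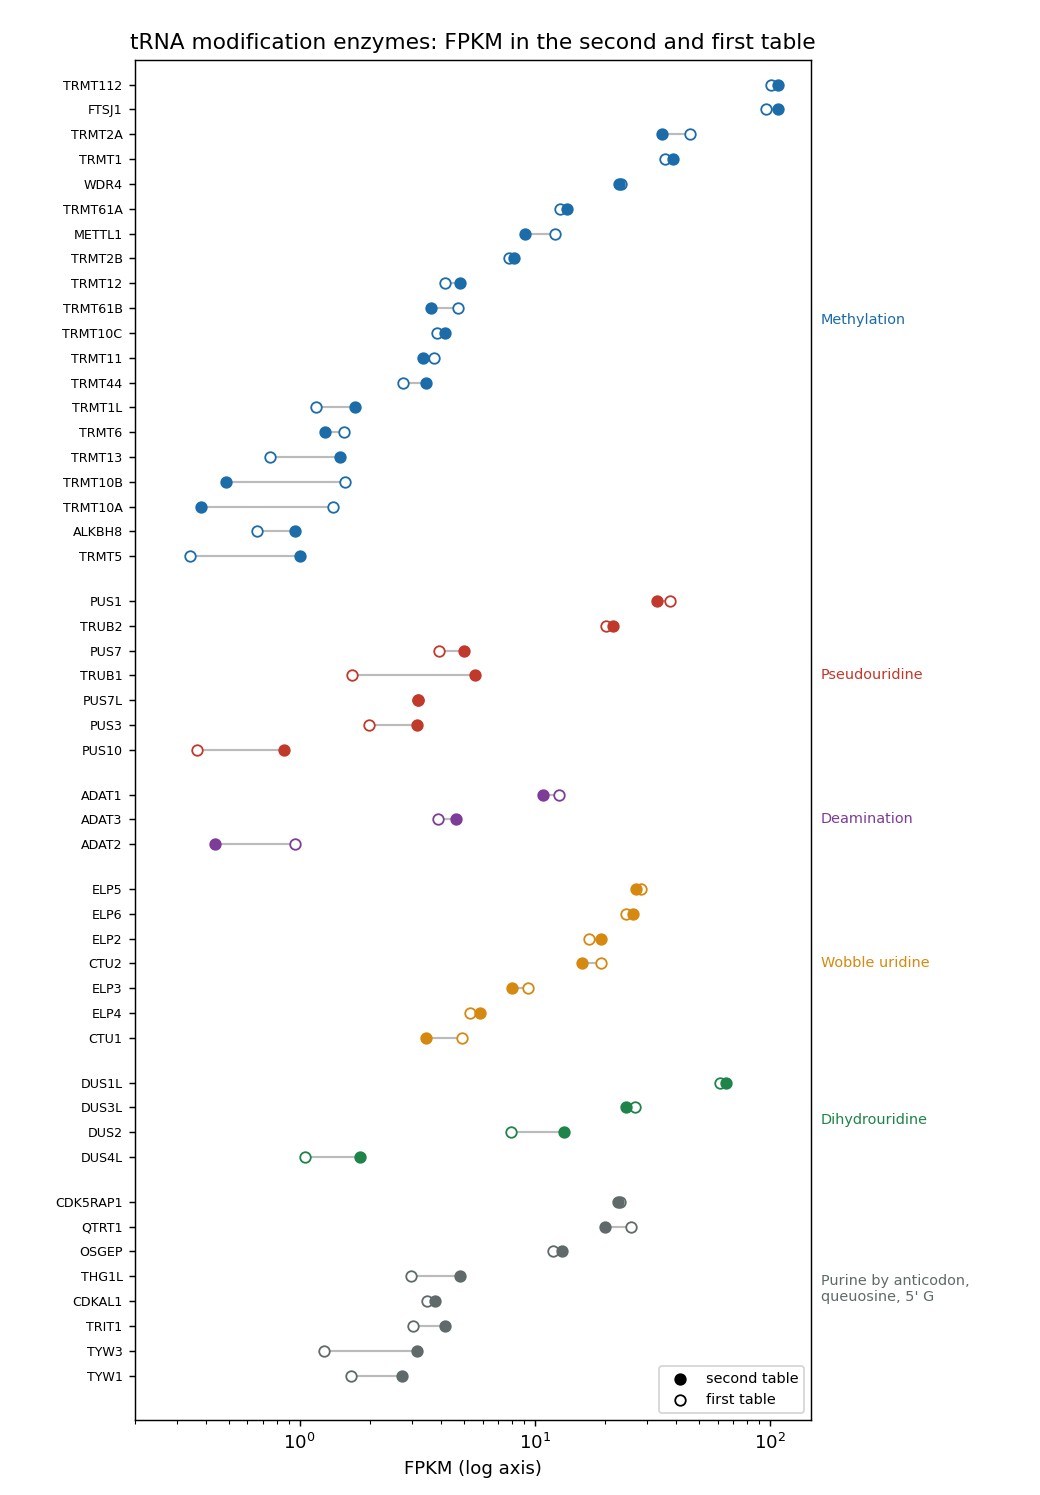
FPKM of 49 of the 50 genes on a log axis in the second table (filled points) and the first table (open points), grouped by modification and ordered by mean level within a group. Long grey bars mark the genes that differ most between the tables, among them TRUB1, TRMT10A and TRMT10B, while TRMT112 and FTSJ1 lie close together at the high end in both tables.

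Of the 50 genes, 30 were higher and 20 lower in the second table. The median log2 ratio was 0.09, against 0.05 over all genes in both tables. Positive ratios made up 60% for the 50 and 54.8% for that background. By mean level, the background share was 47.2% under 2 FPKM, 62.4% from 2 to under 10 FPKM and 54.3% at 10 FPKM or more. The counts of higher genes here and below were not tested against these shares. A gene was counted as different from 1.5-fold upward, measured with the pseudocount. By that measure 3 of the 50 were higher in the second table, TRUB1, TYW3 and DUS2, where 12.2% of all genes were, and 2 were lower, TRMT10A and TRMT10B, where 7.83% of all genes were. The other 45 lay within 1.5-fold. Whether a value reflects expression in the culture or recovery in a co-immunoprecipitate cannot be told from the headers. Even in RNA from a whole culture, fewer cells with a transcript and less of it per cell cannot be told apart. Split by mean level, 2 of the 10 genes under 2 FPKM differed by at least 1.5-fold in either direction, beside 19.4% of all genes at that level. In the range from 2 to under 10 FPKM 2 of 20 did, beside 26.1%, and at 10 FPKM or more 1 of 20 did, beside 14.6%. The share of the tRNA enzymes past 1.5-fold was thus near that of all genes under 2 FPKM and lower above it, with no test of that difference. The count rests on the pseudocount: at 0.1 FPKM it was 10 higher and 3 lower, or 26.0% of the 50 in either direction, beside 34.6% of all genes.

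**Figure D2:**
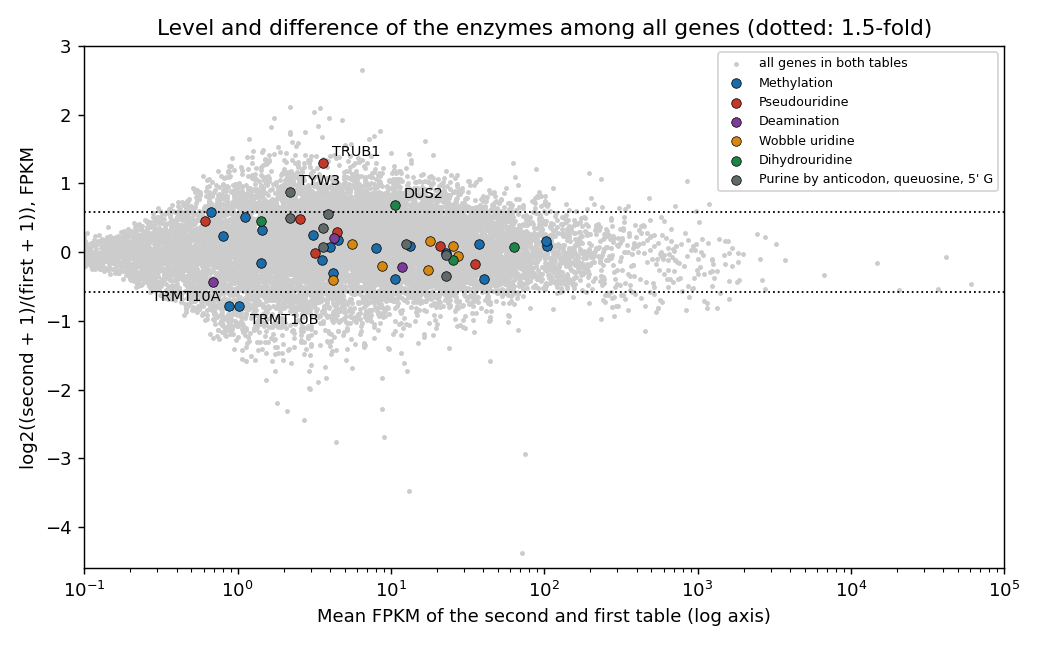
Mean FPKM of the 2 tables (log axis) against the log2 ratio of the second over the first table, for all genes in both tables (grey) and 49 of the 50 tRNA enzymes (coloured by modification). Genes with a mean under 0.1 FPKM are not drawn. TRUB1, TYW3 and DUS2 lie above the upper dotted line of 1.5-fold, and TRMT10A and TRMT10B lie below the lower one.

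The 5 genes that differed most with the pseudocount of 1 FPKM came from 4 of the 6 classes. TRUB1 makes the pseudouridine of the T loop that nearly all tRNAs carry, and TYW3 is a methyltransferase in the synthesis of wybutosine, the bulky base beside the anticodon of phenylalanine tRNA. DUS2 is a dihydrouridine synthase. TRMT10A and TRMT10B are paralogous methyltransferases of the purine between the acceptor stem and the D arm. Promoters of TRUB1, DUS2, TRMT10A and TRMT10B are shown from RefSeq on GRCh38.p14, from 250 bases before to 50 after the annotated start, because the study concerns DNMT1, which methylates cytosine in CG dinucleotides. Capitals mark each CG in the 5′ to 3′ direction of the gene.
TRUB1 promoter, chr10:114937945-114938244, plus strand: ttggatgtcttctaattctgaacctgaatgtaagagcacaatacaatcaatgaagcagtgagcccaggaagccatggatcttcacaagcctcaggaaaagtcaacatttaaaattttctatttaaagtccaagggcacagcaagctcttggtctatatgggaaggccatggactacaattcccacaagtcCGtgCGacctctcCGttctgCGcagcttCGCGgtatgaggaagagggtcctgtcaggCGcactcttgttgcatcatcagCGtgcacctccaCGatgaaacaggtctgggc
DUS2 promoter, chr16:68023034-68023333, plus strand: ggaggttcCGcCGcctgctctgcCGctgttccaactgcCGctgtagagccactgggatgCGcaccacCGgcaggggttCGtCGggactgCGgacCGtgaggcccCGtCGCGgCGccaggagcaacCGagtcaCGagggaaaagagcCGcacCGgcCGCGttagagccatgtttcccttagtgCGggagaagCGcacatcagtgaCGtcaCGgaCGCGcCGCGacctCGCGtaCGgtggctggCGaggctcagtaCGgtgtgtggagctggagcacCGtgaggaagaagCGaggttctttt
TRMT10A promoter, chr4:99563990-99564289, minus strand: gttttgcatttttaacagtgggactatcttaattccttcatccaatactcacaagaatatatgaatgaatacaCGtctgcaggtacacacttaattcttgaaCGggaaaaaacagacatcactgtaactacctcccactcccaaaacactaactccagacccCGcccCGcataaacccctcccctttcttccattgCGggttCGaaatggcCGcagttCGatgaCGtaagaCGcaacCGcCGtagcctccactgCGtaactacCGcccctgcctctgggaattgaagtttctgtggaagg
TRMT10B promoter, chr9:37753555-37753854, plus strand: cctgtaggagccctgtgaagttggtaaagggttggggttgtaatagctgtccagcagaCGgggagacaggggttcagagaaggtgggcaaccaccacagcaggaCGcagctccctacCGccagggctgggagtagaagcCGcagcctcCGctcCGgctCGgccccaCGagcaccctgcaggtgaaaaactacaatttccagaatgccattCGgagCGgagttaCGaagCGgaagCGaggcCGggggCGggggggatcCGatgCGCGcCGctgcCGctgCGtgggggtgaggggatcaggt

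The TRUB1 promoter holds 9 CG dinucleotides, that of DUS2 35, that of TRMT10A 14 and that of TRMT10B 21. The 41 of the 50 genes with a RefSeq promoter had a median of 21, from 8 to 48, beside 22 for 15843 protein-coding genes. The sequences themselves say nothing of methylation, which was not measured in the tables. Searched on both strands, GGGCGG, the GC box, whose letters include a CG marked above, lay in the promoters of TRMT10A and TRMT10B, and CCAAT lay in that of TRMT10A. Neither of these, nor TATAAA or CCGGAAG, the core of many ETS sites, lay in the windows of TRUB1 and DUS2. GGGCGG was found in 58.5% of the 41 promoters and in 58.5% of all, CCAAT in 29.3% and 36.4%, TATAAA in 7.32% and 9.63%, and CCGGAAG in 26.8% and 14.2%. These matches describe letters only.

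In the methylation class, which holds partner subunits too and leaves out TYW3, 12 of 20 genes were higher and 8 lower in the second table. Their median log2 ratio was 0.09. None of these 20 was at least 1.5-fold higher, and 2 were at least 1.5-fold lower. TRMT10A (ENSG00000145331; chromosome 4, 99546709 to 99625913, hg38) was listed at 0.380 FPKM in the second table, against 1.38 FPKM in the first, a log2 ratio of -0.79. No other listed gene shares its locus. TRMT10B (ENSG00000165275) was listed at 0.486 FPKM, against 1.56 FPKM, a log2 ratio of -0.78. Without the pseudocount the second-table values were 0.275 and 0.312 times those of the first table. TRMT10B lies in a merged locus of 10 identifiers on chromosome 9, from 37510892 to 38069211, so fragments there could be divided between genes upstream. Its protein-coding neighbours at that locus did not share the difference in size: EXOSC3 had 9.22 FPKM, against 8.77 FPKM, DCAF10 had 3.49 against 3.15 FPKM and TOMM5 had 26.5 against 20.0 FPKM. SHB, SLC25A51 and FBXO10 had log2 ratios of 0.09, 0.39 and 0.07. TRMT10C, the mitochondrial member of the same family and a subunit of mitochondrial RNase P, was listed at 4.14 FPKM, against 3.86 FPKM. Its level was thus 10.9 times that of TRMT10A in the second table and 2.79 times in the first.

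None of the most abundant methylation genes reached 1.5-fold. TRMT112, the small activating partner of several RNA and protein methyltransferases, had 108.1 FPKM in the second table, against 101 FPKM in the first. FTSJ1, a ribose methyltransferase of the anticodon loop, had 108.0 against 96.4 FPKM. TRMT1, which dimethylates a guanosine between the D and anticodon arms, had 38.9 against 35.7 FPKM, while its paralog TRMT1L had 1.72 against 1.17 FPKM. The uridine methyltransferase of the T loop, TRMT2A, was lower in the second table at 34.7 FPKM, against 45.8 FPKM, and shared its locus with RANBP1 and DGCR8. Its mitochondrial paralog TRMT2B had 8.15 against 7.79 FPKM. TRMT1 and TRMT2A thus stood above their paralogs in both tables.

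Several other methyltransferases act on adenosine or guanosine in the tRNA core. TRMT61A, the catalytic subunit of the enzyme that makes 1-methyladenosine in the T loop, had 13.8 FPKM, against 12.8 FPKM in the first table, and its partner TRMT6 had 1.28 against 1.55 FPKM. The mitochondrial TRMT61B had 3.64 against 4.70 FPKM. METTL1, the catalytic subunit for 7-methylguanosine of the variable loop, had 9.08 against 12.2 FPKM, and its partner WDR4 22.9 against 23.2 FPKM. TRMT11, which methylates a guanosine of the D arm together with TRMT112, had 3.36 against 3.72 FPKM.

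Several genes of the methylation class with a low level were higher in the second table, none past 1.5-fold on the log2(FPKM + 1) scale. Others at such levels, TRMT10A, TRMT10B, TRMT6, TRMT11 and TRMT61B, were lower, as given above. TRMT5, which methylates the guanosine beside the anticodon, was the lowest by mean level, at 1.01 FPKM against 0.343 FPKM. Its log2 ratio of 0.58 lay just under 1.5-fold, and without the pseudocount it was 2.94-fold higher. TRMT5 shares its locus with MNAT1 and SLC38A6. TRMT13, a ribose methyltransferase of the acceptor stem, had 1.49 against 0.747 FPKM, TRMT44, another ribose methyltransferase, had 3.46 against 2.75 FPKM, and TRMT12, which acts in wybutosine synthesis, had 4.83 against 4.17 FPKM. ALKBH8, which methylates the side chain of the wobble uridine, had 0.955 against 0.659 FPKM.

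Of the 7 pseudouridine synthases 5 were higher in the second table, and 1 was so by 1.5-fold or more. The class median log2 ratio was 0.29. That gene was TRUB1 (ENSG00000165832; chromosome 10, 114938193 to 114977676), listed at 5.57 FPKM in the second table, against 1.67 FPKM in the first. Its log2 ratio of 1.30, or 3.32-fold without the pseudocount, was the one difference among the 50 genes to reach 2-fold with the pseudocount, and 3.72% of all genes differed by that much. No other listed gene shares its locus. Its paralog TRUB2, which acts in mitochondria, had 21.5 against 20.1 FPKM, so that TRUB2 stood 3.87 times above TRUB1 in the second table and 12.0 times above it in the first. TRUB2 shares its locus with COQ4, and how fragments were divided there was not tested.

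The other synthases differed less. PUS1, which serves both nuclear and mitochondrial tRNAs, was the highest of the class, at 33.3 FPKM against 37.7 FPKM. PUS7 had 5.02 against 3.92 FPKM, and its paralog PUS7L had 3.18 against 3.19 FPKM, the smallest difference among the 50. PUS3, which acts in the anticodon stem and loop, had 3.16 against 1.97 FPKM. PUS10, which acts in the T loop, was lowest in the class, at 0.863 against 0.366 FPKM, and shares its locus with PEX13.

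**Figure D3:**
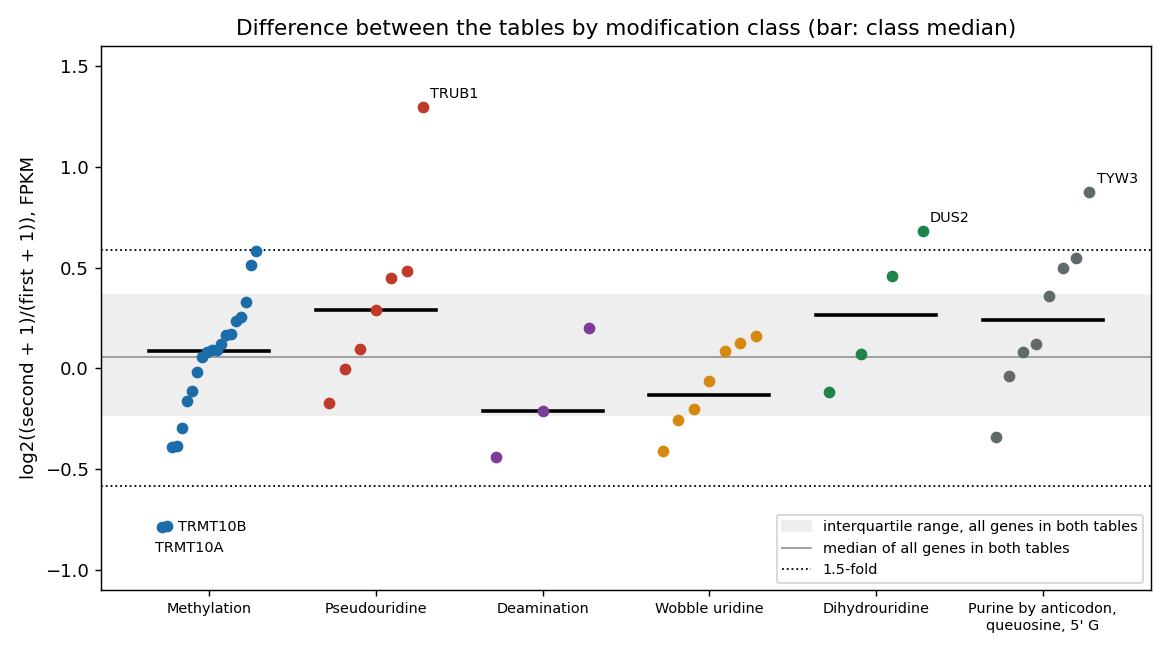
Log2 ratio of the second over the first table for 49 of the 50 genes by modification, with the median of all members of a class as a black bar, the interquartile range of all genes in grey and 1.5-fold as dotted lines. Class medians lie from -0.21 for deamination to 0.29 for pseudouridine, all inside the interquartile range of all genes, from -0.23 to 0.36.

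Of the 3 adenosine deaminases, none differed by 1.5-fold on the log2(FPKM + 1) scale. ADAT2 and ADAT3 together make the wobble inosine, ADAT2 being the catalytic subunit. ADAT2 was listed at 0.438 FPKM in the second table, against 0.953 FPKM in the first, and ADAT3 at 4.61 against 3.88 FPKM. ADAT3 thus stood 10.5 times above its partner in the second table and 4.07 times in the first. ADAT3 shares its locus with SCAMP4. ADAT1, which deaminates the adenosine beside the anticodon of alanine tRNA, was the highest, at 10.9 against 12.7 FPKM, in a locus with GABARAPL2 and TMEM231.

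The 8 wobble uridine genes had the most even levels of the 6 classes, from CTU1 to ELP5 7.85-fold in the second table and 5.76-fold in the first. Of these, 3 were higher and 5 lower in the second table, with a median log2 ratio of -0.13 and none past 1.5-fold. Elongator starts the side chain of the wobble uridine, and the levels of the 5 subunits given here spanned 4.61-fold in the second table and 5.33-fold in the first. ELP3, the catalytic subunit, had 8.04 FPKM, against 9.39 FPKM, and the propeller protein ELP2 had 19.1 against 17.0 FPKM. Of the ring-forming subunits, ELP5 had 27.0 against 28.2 FPKM, ELP6 26.1 against 24.5 FPKM and ELP4 5.85 against 5.29 FPKM. These 5 differed by less than 1.5-fold, and ELP4 was lowest and ELP5 highest in both tables. ELP2 and ELP5 share their loci with other identifiers, and how fragments were divided there was not tested. CTU1 and CTU2, which form the enzyme that adds sulfur to the same base, were both lower in the second table, CTU1 at 3.44 against 4.90 FPKM and CTU2 at 15.8 against 19.1 FPKM.

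Of the 4 dihydrouridine synthases 3 were higher in the second table, and the median log2 ratio was 0.26. DUS2 (ENSG00000167264), at 13.3 FPKM in the second table, against 7.94 FPKM in the first, had a log2 ratio of 0.68. It was the one gene at 10 FPKM or more by mean level that differed by at least 1.5-fold. Its merged locus on chromosome 16, from 67987394 to 68238102, holds 8 identifiers, among them NFATC3 at 10.5 against 8.01 FPKM, ESRP2 at 28.7 against 29.0 FPKM and DDX28 at 14.9 against 15.6 FPKM. RP11-96D1.11, also there, had 3.43 against 1.97 FPKM, a log2 ratio of 0.58. RP11-96D1.6 and RP11-96D1.10 had log2 ratios of 0.20 and -0.17. How fragments were divided between these identifiers was not tested. DUS1L was the highest of the class, at 64.9 against 61.7 FPKM, and DUS3L had 24.5 against 26.7 FPKM. DUS4L was the lowest, at 1.81 against 1.05 FPKM, in a locus with COG5 and HBP1.

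Of the 8 genes for the modified purine beside the anticodon, for queuosine and for the added 5′ guanosine of histidine tRNA, 6 were higher and 2 lower, with a median log2 ratio of 0.24. TYW3 (ENSG00000162623; chromosome 1, 74705482 to 74766678) had 3.16 FPKM in the second table, against 1.27 FPKM in the first, a log2 ratio of 0.87. CRYZ, a quinone reductase that shares this locus, differed alike, at 12.3 against 6.79 FPKM, a log2 ratio of 0.77. How fragments were divided between TYW3 and CRYZ was not tested. TYW1, the radical enzyme that forms the tricyclic ring of wybutosine, had 2.74 against 1.65 FPKM, a log2 ratio of 0.50. Its near-identical copy TYW1B went the other way, at 0.487 against 1.22 FPKM. Summed, the 2 copies had 3.22 against 2.87 FPKM, a log2 ratio of 0.13, so the difference of TYW1 alone is uncertain.

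None of the remaining genes of this class reached 1.5-fold with the pseudocount. TRIT1, which adds the isopentenyl group, had 4.17 against 3.03 FPKM. CDK5RAP1, which adds a methylthio group to isopentenyladenosine in mitochondria, was the highest of this class in the second table, at 22.5 against 23.1 FPKM. CDKAL1, which does so on threonylcarbamoyladenosine in the cytosol, had 3.76 against 3.50 FPKM, and OSGEP, the catalytic subunit of the KEOPS complex that makes that base, had 13.03 against 11.9 FPKM. QTRT1, which exchanges a guanine for queuine at the wobble position, was lower in the second table at 20.0 FPKM, against 25.6 FPKM, the highest of this class in the first. THG1L, which adds the 5′ guanosine of histidine tRNA, had 4.81 against 2.97 FPKM, a log2 ratio of 0.55.

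Subunits of the same complex were often listed at unequal levels. TRMT61A stood 10.7 times above TRMT6 in the second table and 8.27 times in the first. WDR4 stood 2.52 and 1.91 times above METTL1, and CTU2 stood 4.61 and 3.90 times above CTU1. TRMT112 exceeded TRMT11 by 32.2 and 27.2 times and ALKBH8 by 113 and 154 times. QTRT1 and its partner QTRT2, at 12.8 against 12.5 FPKM, lay within 1.56-fold and 2.05-fold of each other. These are levels of RNA per length and not of protein. METTL1, CTU2, TRMT112 and QTRT2 share their loci with other identifiers. How fragments were divided there was not tested.

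**Figure D4:**
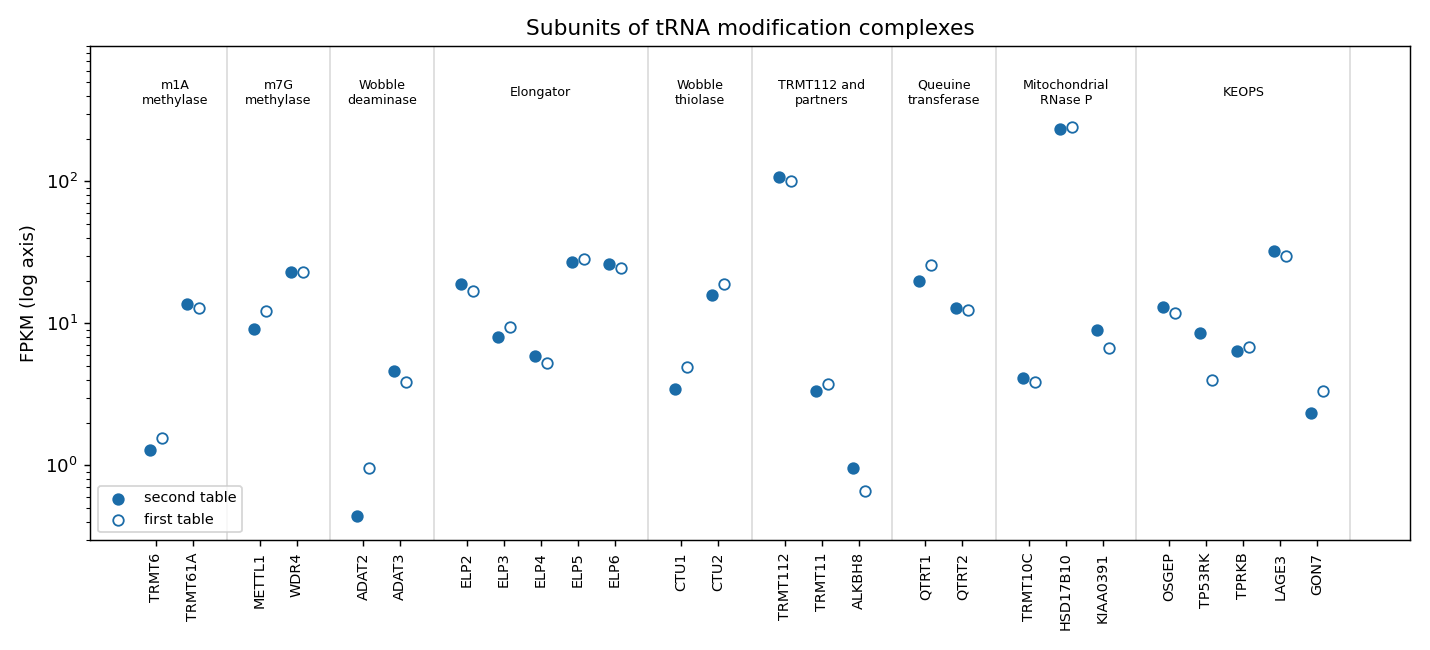
FPKM on a log axis of subunits of 9 complexes, the second table as filled points left of the first table as open points. TRMT6 lies below TRMT61A, ADAT2 below ADAT3 and CTU1 below CTU2 in both tables, and HSD17B10, a dehydrogenase that is also part of mitochondrial RNase P, is the highest of all.

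In the rest of the tRNA modification pathway 44 further genes, NSUN members included, were in both tables, 26 higher and 18 lower in the second, with a median log2 ratio of 0.12. Of these, 7 were at least 1.5-fold higher, beside 12.2% of all genes, and 1 at least 1.5-fold lower, beside 7.83% of all genes. The largest differences outside the NSUN family were those of DTWD2, METTL6, METTL8 and TP53RK. DTWD2, which adds an aminocarboxypropyl group to uridine, had 3.24 against 0.537 FPKM, a log2 ratio of 1.46. TP53RK, a kinase-like subunit of KEOPS, had 8.58 against 4.0 FPKM, a log2 ratio of 0.94, while OSGEP, its catalytic partner, stayed at a log2 ratio of 0.12. METTL6 and METTL8, both methyltransferases of cytidine in the anticodon loop, lay on opposite sides, with log2 ratios of 1.07 and -1.03. NSUN2 and NSUN3, cytosine methyltransferases, had log2 ratios of 1.04 and 0.92.

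The position of a gene also went with its ratio. Over all genes, those with 21 or more listed genes starting within 1 Mb had a median log2 ratio of -0.04, and those with fewer had 0.17. Among the 50 tRNA enzymes the 22 with 21 or more such neighbours had a median of 0.08 and a median level of 20.8 FPKM in the second table and 21.6 FPKM in the first. The 28 with fewer had a median log2 ratio of 0.14 and levels of 3.41 and 2.86 FPKM. TRUB1, TYW3, TRMT10A and TRMT10B were among the 28, with 6, 4, 9 and 16 neighbours, and DUS2 had 67. Across the 50 genes the Spearman correlation of the ratio was -0.16 with the number of neighbours and -0.27 with mean level, as a description of genes that share the 2 tables. The 21 genes that share a locus with another identifier had a median of 0.10 and the 29 that do not had 0.08. The part of gene density, level or locus sharing in the single differences was not tested.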

How the data were processed

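The deposited values are FPKM per gene, computed by the authors, in 2 tables with a gene identifier, name and locus, per the file headers. Which tool made the FPKM is not stated. Per the submitters' processing notes, hg38, MACS 1.4.2, BWA 0.7.13 and cutadapt 1.12 were used, with roles left unnamed. No header names a sample, so none was assigned. Locus starts are printed with 1 added: so shifted, 1824 genes with an unshared locus began at their RefSeq start, and unshifted 148 did.

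Absolute depth is unknown. Among 2354 genes under 1 FPKM in both tables, ratios without a pseudocount piled up near log2 values of -0.08 and -1.10, which leaves relative depth undecided.

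Genes were joined by identifier, and log2((second + 1)/(first + 1)) was computed with scipy 1.17.1, numpy 2.4.6 and pandas 2.3.3 in Python 3.11.15, and drawn with matplotlib 3.10.9. The code was tested on simulated data built from first-table values above 10 FPKM, so the test does not cover lower levels. The members, gene lists and 1.5-fold limit were chosen with earlier results of these data known. Named were genes at least 1.5-fold apart, class extremes, complex subunits and up to 6 other pathway genes, and both values are given for the members, except 1 whose values are not reported here. Paralog pairs, TYW1B and the promoter motifs were chosen after values had been seen. METTL2A, METTL2B, DTWD1, MTO1, GTPBP3 and TRMU, given at the end, fall outside the rule for other pathway genes. Alternatives were a pseudocount of 0.1 FPKM or none, centring, a mean of at least 10 FPKM, unshared loci, equal sums without the 10 highest genes, and a 2-fold limit.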

Additional observations from a re-analysis of the deposited data

How the results depend on the processing

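No paired analysis was possible because neither header names a replicate, and leaving out replicates was not run for the same reason. Dropping the pseudocount was chosen after seeing the data, and the other settings were planned. Of the 50 tRNA enzymes, 3 were higher and 2 lower by 1.5-fold or more. This became 10 and 3 with a pseudocount of 0.1 FPKM and also 10 and 3 without one, where low genes gain by construction, beside 34.6% and 37.6% of all genes in either direction. The genes added were TRMT5, TRMT13, PUS3, PUS10, DUS4L, TYW1 and THG1L among the higher ones and ADAT2 among the lower ones. With fewer genes entering by construction, the counts were 1 and 0 from 10 FPKM upward (DUS2), beside 14.6% of all genes there in either direction, and 1 and 1 among genes alone at their locus (TRUB1 and TRMT10A), beside 20.6%. At 2-fold they were 1 and 0, beside 3.72%. With equal sums without the 10 highest genes, which multiplies the second table by 1.02, TRMT5 joined the higher ones, and WDR4 and PUS7L, both near 0, changed sign. Centring on the median of all genes left the counts at 3 and 2. The median ran from 0.04 to 0.12 over the settings that keep all 50. It was 0.03 for the 20 from 10 FPKM upward and 0.08 for the 29 alone at their locus. For the 44 other pathway genes the counts of 7 and 1 became 3 and 1 at 2-fold, beside 3.72% of all genes in either direction. From 10 FPKM upward, where fewer of the 44 enter, they were 1 and 0, beside 14.6%. Among genes alone at their locus, again fewer, they were 5 and 0, beside 20.6%. With a pseudocount of 0.1 FPKM or none they were 9 and 4, beside 34.6% and 37.6%. With centring they were 7 and 3, beside 19.6%. With 1 value per table, no setting measures the error of a single gene.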

Other observations

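Methyltransferases that place 3-methylcytidine in tRNA, which are not among the 50 genes, did not move as a group. METTL6 had 7.82 FPKM in the second table, against 3.21 FPKM in the first, and METTL8, which acts in mitochondria, had 2.04 against 5.195 FPKM. The near-identical METTL2A and METTL2B summed to 33.6 against 26.5 FPKM, a log2 ratio of 0.33. METTL6 shares its locus with EAF1 and COLQ, and METTL8 with DCAF17.

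DTWD1 and DTWD2, each an aminocarboxypropyl transferase, were higher in the second table. DTWD1 had 3.73 against 1.86 FPKM, a log2 ratio of 0.72, and DTWD2 had a log2 ratio of 1.46. MTO1, which modifies the wobble uridine of mitochondrial tRNAs, had 3.64 against 5.84 FPKM, while its partner GTPBP3 had 25.04 against 25.9 FPKM and the mitochondrial thiolase TRMU 21.1 against 22.1 FPKM.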
